A study of Mus musculus with 8 samples.

Results

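The genes described here are 10 immediate early genes, Fos, Fosb, Jun, Junb, Jund, Egr1, Atf3, Ier2, Dusp1 and Nr4a1, taken as a fixed list of genes known to respond to cell activity and to tissue dissociation. All 10 were among the 11315 genes with RNA values, and 354 of the 1497075 CpG sites with hydroxymethylation counts carried one of their symbols as promoter, exon or intron. Both RNA-sequencing and RRHP, short for reduced representation hydroxymethylation profiling, were performed on adult oligodendrocyte progenitor cells (aOPC) and adult oligodendrocytes (aOL) from the brain of C57BL/6 mice at postnatal day 60. The aOPC were sorted by fluorescence from the Pdgfra-H2BEGFP line, in which a nuclear EGFP marks cells with an active Pdgfra locus, and the aOL from the Plp-EGFP line, in which the Plp promoter drives EGFP. All samples were dissociated with papain, passed over a Percoll gradient and sorted as live EGFP-positive cells, and both nucleic acids were taken from a single pellet of cells. There were 2 RNA and 2 RRHP libraries per population, numbered replicates 2 and 3. Replicate 1 was not analysed here. The aOL RRHP samples carry a tissue label that names the Pdgfra reporter and were grouped by their titles, and the aOL RNA titles call the cells pre-myelinating where the protocol calls them myelinating. Whether a library came from one animal or from pooled animals is not given in the sources used here, so p-values measure only the spread between these libraries.

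Immediate early genes are transcribed within minutes of a stimulus, from promoters that are already open and without new protein synthesis. Signals that reach the nucleus through the MAP kinases act on the transcription factors SRF and CREB, which switch on Fos, Egr1 and their relatives, and many of the transcripts are short-lived. FOS and JUN proteins pair to form AP-1, EGR1 and NR4A1 are transcription factors of other families, and DUSP1 is a phosphatase that switches the MAP kinases off again. Enzymatic dissociation of tissue is itself a known stimulus for these genes, in brain cells as in other cells. A bulk library cannot tell a higher level in every cell from a larger share of cells with a high level.

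The RNA values, normalized by the authors, are read here as log2 levels from their range, and their quantiles are nearly equal across libraries. Neither the scale nor a step to a common distribution is given in the sources used here. A fold change below is aOL minus aOPC on that scale. The first question was whether the genes differ in RNA between the populations. In aOPC replicate 2, 9 of the 10 genes lay far above their level in the other 3 libraries. In aOPC replicate 3 their level minus the aOL mean ran from -0.28 (Egr1) to 0.96 (Ier2) log2 units. Between the populations, 0 of 10 genes passed the test (limma, p under 0.01 with Benjamini-Hochberg adjusted p under 0.05), against 0.0808% of the 11133 genes tested. The adjusted p of the 10 genes ranged from 0.145 to 0.506. At an unadjusted p under 0.05 the number was 1, Jund, against 24% of the genes tested in either direction and 12% lower in aOL. The fold change was below 0 in all 10 genes, with a median of -2.75 against 0.02 over all genes tested, of which 48.7% were below 0. In 7 of the 10 genes both aOPC libraries lay above both aOL libraries, against 29.9% of the genes tested. These were Fos, Fosb, Junb, Jund, Ier2, Dusp1 and Nr4a1.

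**Figure D1:**
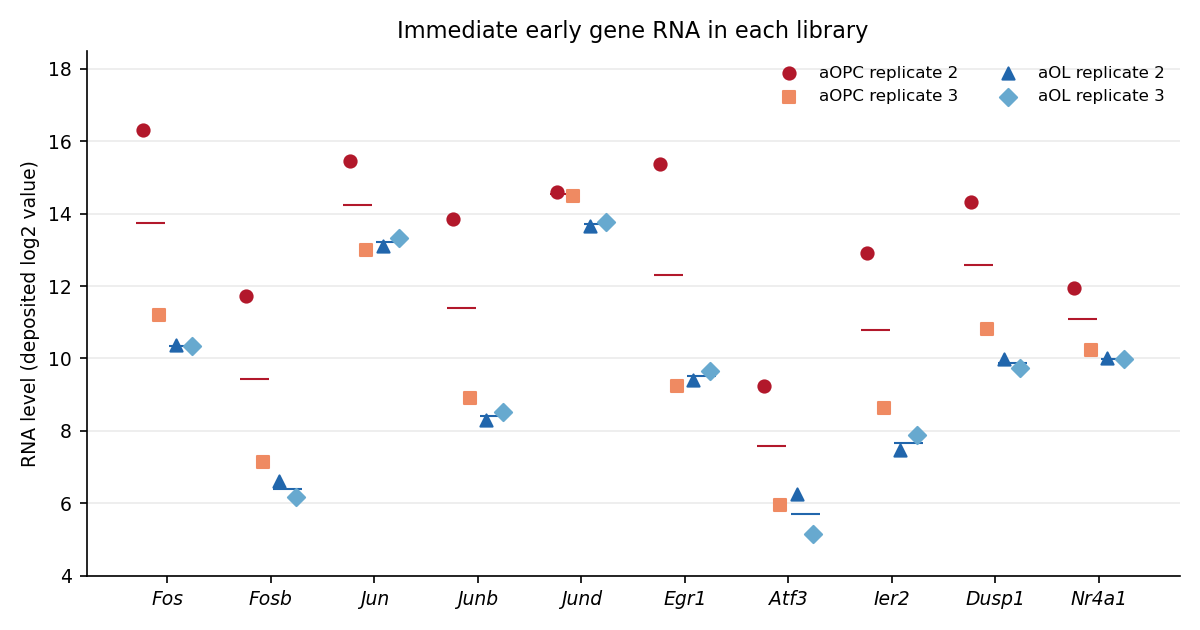
RNA level (deposited log2 value, vertical axis) of the 10 genes in each of the 4 RNA libraries. Points are libraries and short lines the mean of the 2 libraries of a population. The aOPC replicate 2 library (red circles) sits apart in every gene but Jund.

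Among the partners that form AP-1, Fos itself had the widest gap between the aOPC libraries. Fos (chromosome 12, 85473890 to 85477274, GRCm38), the defining member of the family, was at 16.30 and 11.20 in aOPC replicates 2 and 3, against 10.37 and 10.34 in the aOL libraries. The aOPC mean was 13.75 ± 3.61 and the aOL mean 10.35 ± 0.02 (SD, n = 2). The populations did not overlap, but the aOPC libraries were 34.3-fold apart from each other, and the fold change of -3.40 had a standard error of 1.78 (limma, adjusted p = 0.313). Fosb (chromosome 7, 19302696 to 19310118), which encodes a closely related AP-1 subunit, had the same order of libraries. It was at 11.72 and 7.13 in aOPC, against 6.61 and 6.16 in aOL, a fold change of -3.04 ± 1.61 (SE; limma, adjusted p = 0.317). Atf3 (chromosome 1, 191170296 to 191183333), a stress-induced factor that can pair with JUN proteins, was at 9.25 and 5.94 in aOPC, against 6.26 and 5.14 in aOL. Here aOPC replicate 3 lay between the aOL libraries, which were themselves 1.12 apart, the widest gap between aOL replicates among the 10 genes, and the fold change was -1.89 ± 1.23 (SE; limma, adjusted p = 0.393).

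The 3 Jun genes differed from one another. Jun (chromosome 4, 95049036 to 95052222) reached 15.46 in aOPC replicate 2, against 13.00 in aOPC replicate 3 and 13.12 and 13.31 in aOL. The aOPC replicate 3 level was the lowest of the 4, and the fold change was -1.02 ± 0.88 (SE; limma, adjusted p = 0.506). Junb (chromosome 8, 84976909 to 84978748), a subunit with weaker activity than JUN on many AP-1 targets, was at 13.86 and 8.92 in aOPC, against 8.29 and 8.53 in aOL. Its aOPC libraries were 30.7-fold apart, and the fold change was -2.98 ± 1.72 (SE; limma, adjusted p = 0.351). Jund (chromosome 8, 70697739 to 70700616), the member of the family that many resting cells already make, was at 14.61 and 14.49 in aOPC, against 13.67 and 13.77 in aOL. Its replicates were within 0.12 in aOPC and 0.11 in aOL, and it was the one member for which the difference between populations exceeded the spread within them. Its fold change of -0.83 ± 0.19 (SE) had an unadjusted p of 0.0116 and a limma adjusted p of 0.145.

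The remaining transcription factors and regulators followed Fos in aOPC replicate 2 and differed in the other libraries. Egr1 (chromosome 18, 34861207 to 34864956), a zinc finger factor, was at 15.38 in the aOPC library of replicate 2 and at 9.24 in that of replicate 3, a 70.4-fold gap and the widest of the 10 genes. The aOL libraries, at 9.40 and 9.65, lay above aOPC replicate 3. Nr4a1 (chromosome 15, 101253902 to 101274795), an orphan nuclear receptor, was at 11.95 and 10.22 in aOPC, against 10.01 and 9.97 in aOL, a 3.31-fold gap within aOPC. Ier2 (chromosome 8, 84661331 to 84662852), an early response gene without introns, was at 12.91 and 8.64 in aOPC, against 7.47 and 7.88 in aOL. Dusp1 (chromosome 17, 26505591 to 26508472) was at 14.33 and 10.81 in aOPC, against 9.99 and 9.74 in aOL. The fold changes of Egr1, Nr4a1, Ier2 and Dusp1 were -2.79 ± 2.14, -1.10 ± 0.63, -3.10 ± 1.50 and -2.71 ± 1.24 (SE; limma, adjusted p = 0.459, 0.345, 0.285 and 0.268).

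Ranked by the gap between aOPC replicate 2 and the highest of the other 3 libraries, the genes ran from Egr1 (5.73 log2 units) through Fos (5.10), Junb (4.94), Fosb (4.58), Ier2 (4.27), Dusp1 (3.52), Atf3 (2.99), Jun (2.15) and Nr4a1 (1.73) to Jund (0.12). Over all genes listed, 57 of 11315 (0.504%) had a gap over 2, and 8 of the 10 genes were among them. A gap over 4 was found for 10 genes (0.0884%), of which 5 were Egr1, Fos, Junb, Fosb and Ier2. The others were Egr2, at 12.41 against 4.01, 5.52 and 5.67 in the other libraries, and the Y-linked genes Ddx3y, Eif2s3y, Uty and Kdm5d. The 4 Y-linked genes were at 9.57 to 12.43 in aOPC replicate 2 and at 0.32 to 1.80 in the other 3 libraries. The animals behind aOPC replicate 2 may therefore differ in sex from those behind the other RNA libraries, which touches every contrast that rests on that library, and the part of this in the level of the 10 genes was not tested. No other library set the 10 genes apart in this way: for aOPC replicate 3 and both aOL libraries, 0 of the 10 genes lay over 1 log2 unit above the highest of the others.

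**Figure D2:**
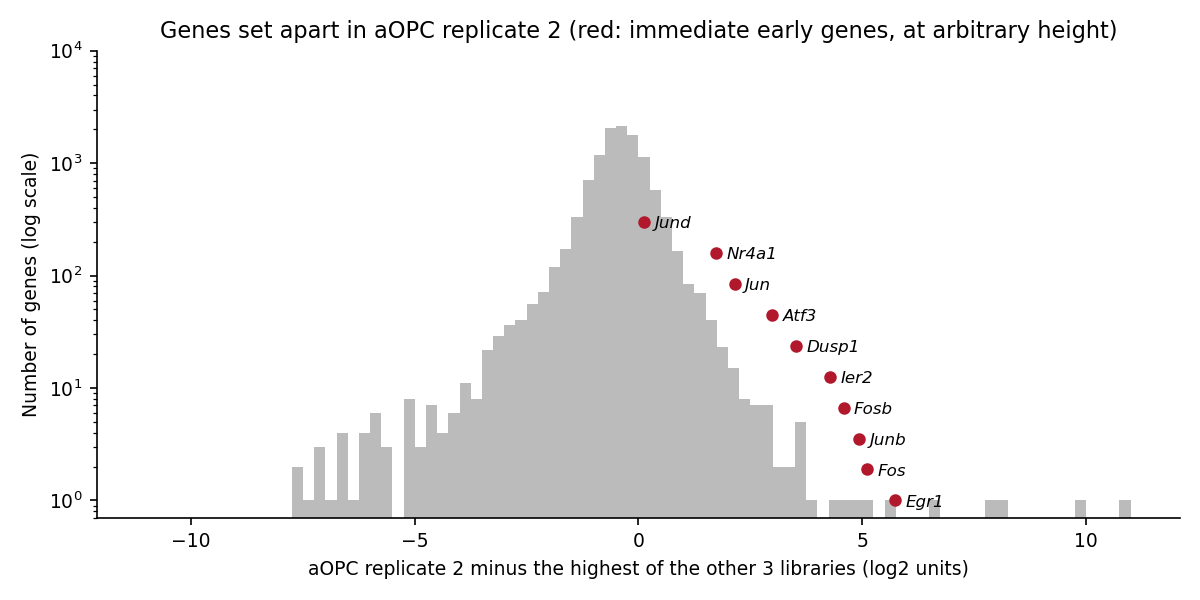
Histogram of all 11315 genes by the level in aOPC replicate 2 minus the highest level in the other 3 libraries (log2 units, horizontal axis; number of genes on a log scale, vertical axis). Red points mark the 10 immediate early genes on the horizontal axis only. From Nr4a1 at 1.73 to Egr1 at 5.73, 9 of the 10 lie in the right tail, and Jund at 0.12 lies in the bulk.

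Because 1 library carried most of the difference, each fit was also made without it, with the remaining aOPC library assumed to vary like the aOL libraries. Without aOPC replicate 2 the median fold change was -0.63, and 3 of 10 genes were called lower in aOL, against 17.9% of 11000 genes. These were Fos (-0.85 ± 0.10, adjusted p = 0.0171), Jund (-0.77 ± 0.11, adjusted p = 0.0221) and Dusp1 (-0.95 ± 0.16, adjusted p = 0.0273; SE, limma). Jun and Egr1 turned to 0.22 and 0.28, higher in aOL, and neither was called. Without aOPC replicate 3 the median was -4.85, and all 10 genes were called lower in aOL, against 9.28% of 11001 genes, with fold changes from -5.95 for Fos to -0.89 for Jund. Jund was the gene whose fold change moved least between the 3 fits.

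**Figure D3:**
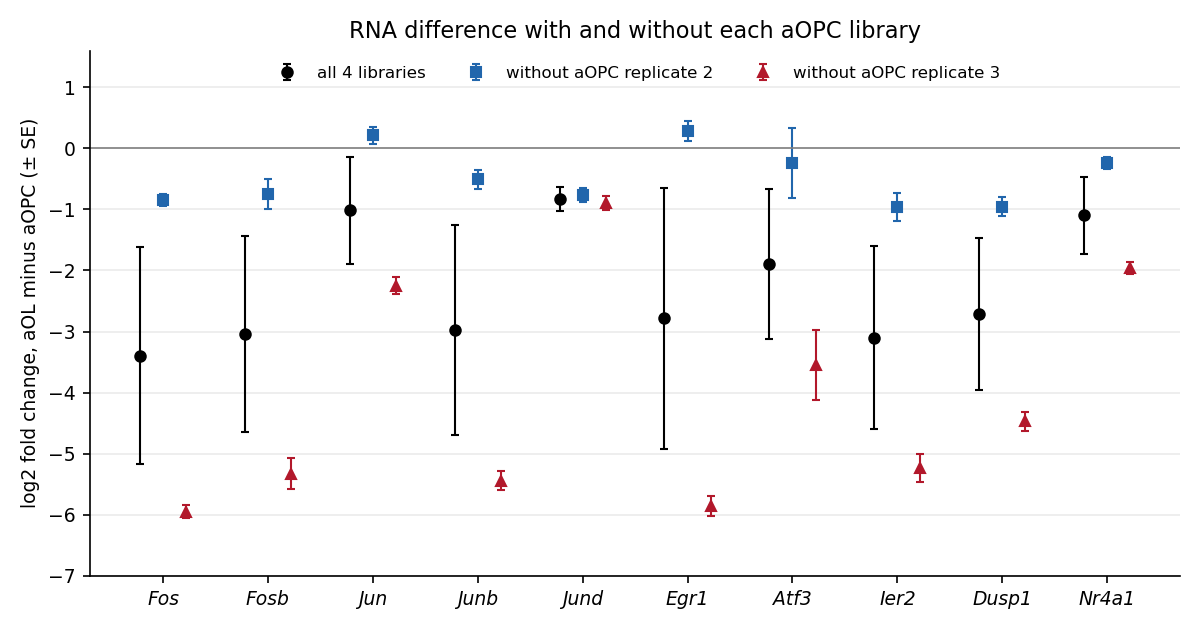
Fold change between aOL and aOPC (log2, vertical axis; bars, standard error from limma) for each of the 10 genes with all 4 libraries, without aOPC replicate 2 and without aOPC replicate 3. Jund stays between -0.89 and -0.77, while Fos runs from -5.95 to -0.85.

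The cell type markers also differed between the aOPC libraries. Of 11 OPC markers 10 were listed, with a median level of 9.62 in aOPC replicate 2, 6.93 in aOPC replicate 3 and 7.78 and 8.13 in aOL. The fold change was below 0 in 6 of them and above 0 in 4, and none was called. Pdgfra (7.54 and 5.47 in aOPC), Neu4 and Vcan were below 5 in both aOL libraries and above 5 in both aOPC libraries, while Ptprz1 (1.06), Olig2 (0.61), Sox10 (0.35) and Lhfpl3 (0.04) had fold changes above 0. Gpr17 was at 12.64 and 8.20 in aOPC, against 9.88 and 9.93 in aOL. All 10 oligodendrocyte markers were at 14.88 or above in every library, the aOPC libraries included. Their median fold change was 0.00, with 5 above 0 and 4 below, and none was called. Mog (-0.65), Cldn11 (-0.76), Opalin (-0.98) and Aspa (-0.53) were lower in both aOL libraries than in both aOPC libraries. Ermn (0.57) and Cnp (0.24) were higher in both. Over all 11315 genes listed, 3359 were lower and 3590 higher in both aOL libraries. Mbp was at 0.72 and Mobp at 0.21, with overlapping populations. Pdgfra, Neu4 and Vcan passed the filter for a test (at least 5 in at least 2 libraries) through the aOPC libraries alone. Their differences are therefore no support for the population labels. Neither the OPC markers nor the oligodendrocyte markers, each as a list, separated the populations. The levels of the marker lists, summed on the linear scale and given as log2, ran from 17.28 to 17.54 in aOPC and from 17.25 to 17.32 in aOL for OPC, from 22.42 to 22.62 and from 22.55 to 22.59 for oligodendrocytes, and from 11.94 to 12.59 and from 11.70 to 12.11 for 10 of 11 microglial markers. For 6 of 8 neuronal markers they ran from 12.17 to 12.46 and from 11.69 to 11.83, and for 8 astrocyte markers from 13.42 to 13.74 and from 13.42 to 13.64. The sums for OPC, oligodendrocytes, microglia and astrocytes were highest in aOPC replicate 2 and that for neurons in aOPC replicate 3, where Tubb3 was at 12.41. Of the 6 neuronal markers listed, 4 were nevertheless highest in aOPC replicate 2, where their median was 7.56, against 5.03 in aOPC replicate 3 and 5.72 and 4.46 in aOL, and of the 10 microglial markers 8 were. Of 9 endothelial markers 2 were listed (Cldn5 and Kdr), and of 6 pericyte markers 1 (Acta2), neither list being higher in aOPC replicate 2. Cldn5 was at 0.33 and 1.80 in aOPC, against 5.92 and 7.13 in aOL. It passed the same filter through the aOL libraries alone, so its difference depends on low values in aOPC. Kdr was at 9.07 and 9.36 in aOPC, against 9.73 and 10.07 in aOL. The part of these differences in the level of the immediate early genes was not tested.

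The genes around the 10 in the same pathway did not move as one. Of 87 symbols on 7 further lists 69 were listed and 66 tested, and 1 gene was called, against the 0.0808% of all genes. This was Egr3, an EGR family factor at 5.08 and 5.18 in aOPC, against 1.57 and 1.63 in aOL (limma, adjusted p = 0.0469). Egr3 passed the filter on low values through the aOPC libraries alone, and its aOL values are low values that 73 and 85 genes share in those libraries, so the size and the error of its difference depend on that floor and are not given. The Egr3 call was lost without the filter on low values (adjusted p = 0.0581) and with a trend (adjusted p = 0.186), and over all alternatives with a value the limma adjusted p ran from 0.0111 to 0.186. With one or the other aOPC library left out, Egr3 did not pass the filter. In the list of further early transcription factors 11 of 12 tested genes had a fold change below 0, with a median of -0.50. The lowest after Egr3 were Klf4 (-2.69), Egr2 (-2.62) and Klf2 (-2.33, adjusted p = 0.0611), and the highest were Atf4 (-0.38), Srf (-0.04) and Myc (0.05). Klf2, a Krüppel-like factor, had nearly equal aOPC replicates 2 and 3, as did Jund among the 10 genes, at 7.98 and 8.03, against 5.73 and 5.63 in aOL. Of 4 further AP-1 genes tested none was called and none had an unadjusted p under 0.05. Their fold changes were -0.34 for Mafg, 0.01 for Jdp2, 0.39 for Fosl2 and 0.64 for Mafk.

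The early growth and survival genes had a median of -1.21, with 12 of 13 below 0 and 5 at an unadjusted p under 0.05, against 12% of all genes lower in aOL at that level. The 5 were Cyr61 (-2.95), Sgk1 (-1.88), Ier5 (-1.69), Ier3 (-1.22) and Btg1 (-1.08), with limma adjusted p from 0.133 to 0.192. Btg2, an antiproliferative gene, was at -2.01, and Gadd45a, Plk3 and Mcl1 were at the other end, at -0.31, -0.29 and 0.15. Of 12 feedback inhibitors, the class of DUSP1, 9 were below 0, with a median of -0.78. Nfkbia, the inhibitor of NF-κB, was at 13.57 and 13.42 in aOPC, against 11.34 and 11.22 in aOL, a fold change of -2.22 (limma adjusted p = 0.0738). Per1 (-1.32) and Dusp10 (-0.61) also had an unadjusted p under 0.05, as had Sik1 (6.83 and 6.36 in aOPC, against 4.69 and 4.73 in aOL), which passed the filter through the aOPC libraries alone. Socs3 was at -2.15, and Dusp6, Zfp36l2 and Trib1 were at 0.08, 0.29 and 0.44. The 2 neuronal activity effectors listed, Arc and Homer1, were at -0.49 and -0.11.

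The kinases and factors that act upstream of the 10 genes centred on 0. Of 13 tested, 6 were below 0 and 7 above, with a median of 0.01 and none called. Map2k2 (-0.69) and Mkl2 (-0.67) were lower and Rps6ka5 (0.66) and Creb1 (0.80) higher at an unadjusted p under 0.05, with limma adjusted p from 0.159 to 0.197. Mapk3 was at -0.49, Elk4 at 0.68 and Rps6ka3 at 1.71. The heat shock genes, the other class known to respond to dissociation, were not set apart in aOPC replicate 2: in 0 of 11 was that library the highest of the 4, against 22% of all genes. Dnajb1 (-0.93) and Hspe1 (-0.55) were lower and Hspa8 (0.70), Hsph1 (0.73) and Hspa1b (1.26) higher in aOL at an unadjusted p under 0.05 (limma adjusted p from 0.148 to 0.205), and Hsp90aa1 was at -0.52.

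By the distance between centred profiles over the 4 RNA libraries, the 6 genes most like the mean of the 10 were Btg2 (0.30), Klf4 (0.74), Dpysl4 (0.79), Ctsc (0.85), Rtn1 (0.93) and Socs3 (0.95 log2 units), where the median over all genes tested was 3.53. Of the 10 genes themselves, Dusp1 was nearest to their mean (0.45) and Jund farthest (2.87). Btg2 was at 12.95, 9.34, 9.08 and 9.18 in aOPC replicates 2 and 3 and aOL replicates 2 and 3.

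The second question was whether the same genes differ in DNA hydroxymethylation. RRHP counts reads from CCGG sites whose inner cytosine carries 5-hydroxymethylcytosine (5hmC), since the glucosylated mark protects the site from the enzyme MspI. Library totals ran from 7113237 to 27057859 counts. The lowest total was that of aOPC replicate 2, where a floor of 3 counts is 0.422 CPM (reads after every library is scaled to one total), against 0.111 to 0.188 CPM in the other libraries. Floors cover counting error only. The share of all counts in CpG islands was 5.74% in aOPC replicate 2 and 2.38% to 3.32% in the others, so the RRHP library of that number also stood apart. RRHP and RNA libraries of the same population and number carry the same sample name.

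The sequences before the starts of these genes show what the assay can read there. The 250 bases before the Fos start hold 15 CpG dinucleotides but no CCGG, so RRHP is blind to them, whereas those before the Dusp1 and Nr4a1 starts hold 3 and 2. Of the promoters 250 bases before to 50 after a start, 52.8% of the 32851 in RefSeq hold a CCGG, and 7 of the 8 members with a sequence do. The 3 sequences are from RefSeq, GRCm38.p6, written 5′ to 3′ on the strand of the gene, with CCGG in capitals.
Fos, before the start, chr12:85473640-85473889, plus strand: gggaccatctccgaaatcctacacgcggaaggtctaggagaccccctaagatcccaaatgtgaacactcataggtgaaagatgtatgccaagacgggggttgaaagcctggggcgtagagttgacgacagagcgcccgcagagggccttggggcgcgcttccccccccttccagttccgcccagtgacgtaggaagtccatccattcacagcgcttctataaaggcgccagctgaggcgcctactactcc
Dusp1, before the start, chr17:26508473-26508722, minus strand: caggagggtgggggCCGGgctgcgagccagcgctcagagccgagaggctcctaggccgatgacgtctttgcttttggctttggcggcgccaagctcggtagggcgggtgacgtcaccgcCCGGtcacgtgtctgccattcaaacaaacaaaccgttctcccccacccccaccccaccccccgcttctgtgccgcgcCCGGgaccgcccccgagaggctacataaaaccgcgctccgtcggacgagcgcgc
Nr4a1, before the start, chr15:101266596-101266845, plus strand: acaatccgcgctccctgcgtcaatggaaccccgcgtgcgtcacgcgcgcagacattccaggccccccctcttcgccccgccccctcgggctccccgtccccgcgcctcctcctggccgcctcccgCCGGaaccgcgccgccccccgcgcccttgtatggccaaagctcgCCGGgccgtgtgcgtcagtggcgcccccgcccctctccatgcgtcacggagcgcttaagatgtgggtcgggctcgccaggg

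Reads at these promoters were few. In the Dusp1 stretch the 6 readable positions (both strands of 3 CCGG) held 13 and 4 counts in aOPC replicates 2 and 3, against 3 and 11 in the aOL libraries. In the Nr4a1 stretch there were 6, 3, 1 and 11 counts in the same order, over 4 readable positions. Of motifs searched on both strands in the promoters of 8 members, the cAMP response element TGACGTCA was found in Dusp1, starting 143 bases before the start, and in 1.79% of all promoters. None of the 8 held the AP-1 motif TGANTCA, the CArG box that SRF binds or the EGR motif GCGTGGGCG. These motifs were found in 7.81%, 1.63% and 0.612% of all promoters. The search covered fixed patterns in the short promoter stretch defined above, and Egr1 and Ier2 had no promoter sequence. Elements farther upstream, or that differ from these patterns, were not searched for, so their absence from these genes is not shown.

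The coding exons of Nr4a1, Dusp1 and Fos held more reads. The mean signal per listed coding site was 2.92 to 3.66 CPM over the libraries in Nr4a1, 1.57 to 2.27 CPM in Dusp1 and 0.851 to 1.11 CPM in Fos, against 0.0703 to 0.422 CPM in the other 7 genes. The following stretches hold the most heavily read sites of Fos, Dusp1 and Nr4a1. They also hold 2 sites described below, in Junb and Nr4a1, and are written as above.
Fos, coding exon, chr12:85476121-85476330, plus strand: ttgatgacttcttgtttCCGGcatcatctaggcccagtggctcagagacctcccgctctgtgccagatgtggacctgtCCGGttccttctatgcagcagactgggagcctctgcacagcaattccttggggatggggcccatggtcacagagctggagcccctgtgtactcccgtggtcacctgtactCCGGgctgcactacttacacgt
Dusp1, coding exon, chr17:26506381-26506620, minus strand: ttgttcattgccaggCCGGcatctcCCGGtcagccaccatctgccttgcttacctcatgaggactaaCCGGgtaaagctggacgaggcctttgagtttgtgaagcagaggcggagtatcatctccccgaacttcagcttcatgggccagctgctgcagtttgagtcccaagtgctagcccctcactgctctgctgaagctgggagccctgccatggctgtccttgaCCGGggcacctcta
Nr4a1, coding exon, chr15:101270131-101270430, plus strand: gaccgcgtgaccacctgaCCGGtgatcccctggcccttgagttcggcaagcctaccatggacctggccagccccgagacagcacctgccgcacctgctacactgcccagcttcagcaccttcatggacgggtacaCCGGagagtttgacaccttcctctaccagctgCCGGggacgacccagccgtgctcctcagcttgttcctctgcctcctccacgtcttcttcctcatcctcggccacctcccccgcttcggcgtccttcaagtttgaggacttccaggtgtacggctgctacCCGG
Nr4a1, exon end and intron, chr15:101272819-101273018, plus strand: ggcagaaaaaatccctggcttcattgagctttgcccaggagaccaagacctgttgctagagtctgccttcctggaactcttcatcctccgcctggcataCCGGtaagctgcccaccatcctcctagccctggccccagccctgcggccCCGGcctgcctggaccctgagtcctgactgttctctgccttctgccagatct
Junb, upstream, chr8:84979092-84979291, minus strand: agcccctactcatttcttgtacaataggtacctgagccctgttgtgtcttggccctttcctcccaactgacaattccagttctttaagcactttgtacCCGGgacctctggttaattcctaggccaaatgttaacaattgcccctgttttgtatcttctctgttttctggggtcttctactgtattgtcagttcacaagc

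In the Fos stretch, from its last exon, 3 CCGG held 55 and 111 counts in aOPC, against 92 and 152 in aOL, which is 7.73, 6.48, 5.78 and 5.62 CPM. In the Dusp1 coding stretch 4 CCGG held 228 and 468 counts in aOPC, against 377 and 687 in aOL, or 32.1, 27.3, 23.7 and 25.4 CPM. This stretch was chosen for its heavily read sites. Over all 16 listed coding sites of Dusp1 the mean was 2.27 and 1.79 CPM in aOPC, against 1.57 and 1.67 CPM in aOL, and over its 11 listed upstream sites it was 0.447, 0.101, 0.0285 and 0.0638 CPM in the same order. The Nr4a1 coding stretch held 19.8 and 28.6 CPM in aOPC, against 32.8 and 27.0 CPM in aOL. The most heavily read site of the 10 genes was in Nr4a1, at 101272919 on the plus strand, where a CCGG lies across the end of a coding exon. It had 146 and 356 counts in aOPC, against 315 and 445 in aOL (20.5, 20.8, 19.8 and 16.4 CPM), a fold change of -0.31 ± 0.24 (SE; edgeR, adjusted p = 0.77).

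**Figure D4:**
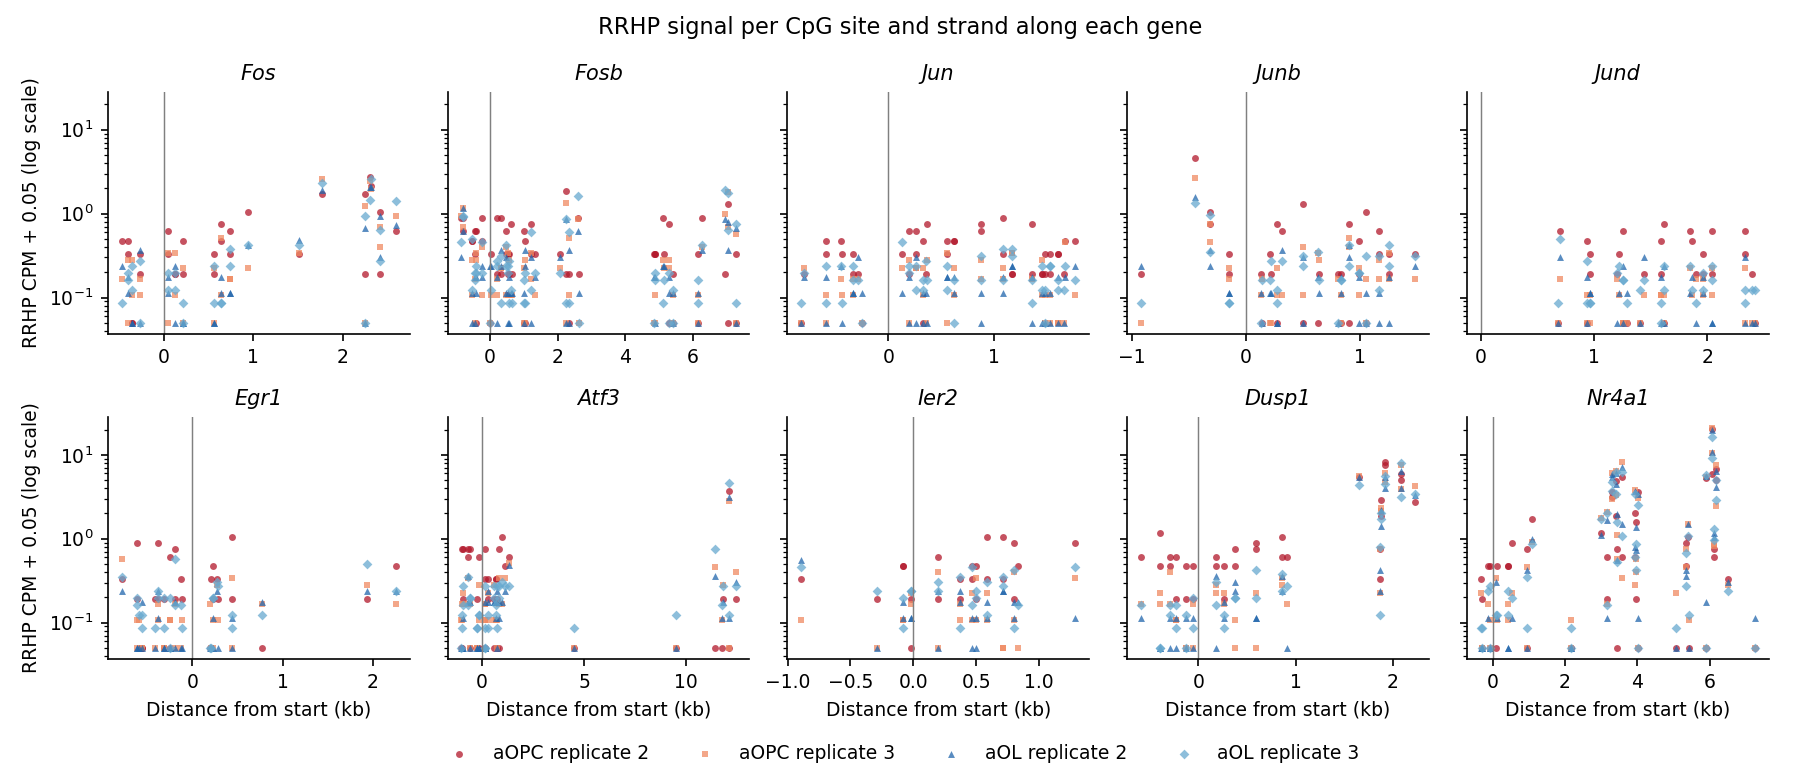
RRHP signal of each CpG site and strand (CPM plus 0.05, log scale, vertical axis) against its distance from the transcription start (kb, horizontal axis; grey line, start) in the 10 genes, with 1 point per library. Signal exceeds 1 CPM in most libraries at sites in the coding exons of Nr4a1, Dusp1 and Fos, near the 3′ end of Atf3 and Fosb and before the start of Junb, and most sites near the starts lie under 1 CPM.

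The signal also differed by CpG island. Of the 354 sites 227 lay in an island, with at most 15 counts in any library, and none of them reached 10 reads in 2 libraries, the minimum for a test. The 127 sites outside islands held all 51 tested sites and 70.4% to 89.7% of the genes' counts. Outside islands the mean signal per site was 1.30 and 1.28 CPM in aOPC replicates 2 and 3 and 1.23 and 1.20 CPM in the aOL libraries. In islands it was 0.307 CPM in aOPC replicate 2 against 0.108, 0.0791 and 0.128 CPM in the others. Island sites of all annotated genes followed the same order, at 0.324, 0.137, 0.128 and 0.181 CPM. By RefSeq, 32 of the 51 tested sites were in coding exons (19 of them in Nr4a1), 7 in introns, 7 in 3′ UTRs and 5 upstream of the start. Jun, which has no intron and no site outside an island, and Jund, Egr1 and Ier2 had no tested site.

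Between the populations 0 of 51 sites were called (edgeR quasi-likelihood test, adjusted p under 0.05), against 2.29% of the 443062 sites tested, and DESeq2 called 0 as well. The adjusted p ranged from 0.105 to 0.999. Of the 51 sites 3 had an unadjusted p under 0.05, against 9.75% of all sites, and 22 had a fold change above 0 and 29 below. The first was upstream of Junb (chromosome 8, 84979192, minus strand, 444 bases before the start and outside an island), with 32 and 45 counts in aOPC, against 24 and 35 in aOL. Its signal was 4.50 and 2.63 CPM in aOPC, against 1.51 and 1.29 CPM in aOL. The fold change was -1.40 ± 0.40 (SE), with an edgeR adjusted p of 0.105. The second, upstream of Fosb (chromosome 7, 19310895, minus strand), had 6 and 15 counts in aOPC, against 4 and 11 in aOL, a fold change of -1.38 ± 0.57 (SE; edgeR, adjusted p = 0.402). The third, at the end of the Nr4a1 coding stretch (101270428, plus strand), went the other way, with 4 and 5 counts in aOPC, against 23 and 28 in aOL. Its signal was 0.562 and 0.292 CPM in aOPC, against 1.44 and 1.03 CPM in aOL, a fold change of 1.57. The site passed the minimum of 10 reads through the aOL libraries alone, where it was high, so its p is no support for a difference. The fold change was 2.05 without aOPC replicate 2 and 0.83 without aOPC replicate 3, and the site did not pass the filter with one or the other aOL library left out.

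Without aOPC replicate 3, 3 sites were called lower in aOL, against 4.02% of 389572. These were the Junb site and both strands of a CpG in the Dusp1 coding exon, and without aOPC replicate 2 no site of the 10 genes was called. The most heavily read site of each other gene differed less than its replicates or was too thin to test. In Dusp1 (26506392, plus strand, coding exon) it had 5.90 and 7.59 CPM in aOPC, against 6.28 and 7.87 CPM in aOL. In Atf3 (191171240, minus strand, 3′ UTR) it had 3.66 and 2.75 CPM against 3.08 and 4.55 CPM, and in Fos (85476201, minus strand, coding exon) 2.11 and 1.93 CPM against 2.01 and 2.51 CPM. In Fosb (19303018, minus strand, 3′ UTR) it had 1.27 and 1.75 CPM against 0.754 and 1.70 CPM. The top sites of Ier2 (84662052), Egr1 (34861020), Jund (70698443) and Jun (95051344) had at most 14 counts in any library and were not tested.

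Summed over exon and intron sites, 0 of 10 gene bodies were called (edgeR), against 0.849% of 18488, and DESeq2 called 0. At an unadjusted p under 0.05 there was 1, Dusp1, against 7.3% of all gene bodies. Nr4a1 had the most counts, with 576 and 1604 in aOPC, against 1568 and 2257 in aOL, or 81.0, 93.7, 98.5 and 83.4 CPM. Its populations overlapped, and its fold change was 0.04 ± 0.14 (SE; edgeR, adjusted p = 0.943). Dusp1 was at 46.4 and 38.7 CPM in aOPC, against 33.9 and 35.0 CPM in aOL. Its fold change was -0.30 ± 0.13 (SE), with an edgeR adjusted p of 0.68. Fos was at 15.3 and 12.1 CPM in aOPC, against 9.86 and 11.3 CPM in aOL. Its fold change was -0.36 ± 0.19 (SE), with an edgeR adjusted p of 0.737. With 1 library left out Fos ran from -0.51 (without aOPC replicate 3) to -0.20 (without aOPC replicate 2). In the same fits Dusp1 ran from -0.41 to -0.19. For the other 7 genes the fold changes ran from -0.99 for Jun to -0.05 for Atf3. With 1 library left out Jun ran from -1.61 (without aOL replicate 3) to -0.18 (without aOPC replicate 2), and in the same fits Junb ran from -1.21 to -0.15 and Fosb from -0.69 to -0.04.

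In 9 of the 10 genes, all but Nr4a1, the gene body signal was highest in aOPC replicate 2, against 39.6% of the 18488 gene bodies tested. Jun was at 10.8 CPM there against 4.09, 2.39 and 4.69 CPM, and Jund at 7.03 CPM against 1.58, 2.01 and 2.96 CPM. Without aOPC replicate 3, 6 gene bodies (Dusp1, Fosb, Ier2, Jun, Junb and Jund) were called lower in aOL, against 12.3% of 18790, and without aOPC replicate 2 none was, with Jund and Ier2 at 0.66 and 0.32. The part of the higher island share of that library in these values was not tested. The median gene body fold change was -0.53 over the 10 genes, against -0.0027 over all gene bodies tested. It was -0.54 over the further early transcription factors, -0.50 over the early growth and survival genes and -0.61 over the neuronal activity effectors. For the feedback inhibitors, heat shock genes, further AP-1 genes and upstream kinases and factors it was -0.19, -0.31, -0.035 and 0.014.

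The promoter sums use the sites that the authors assign to a promoter, some of which they also assign to an exon or intron. Of the promoters 0 of 10 were called (edgeR), against 0.768% of 14579, and DESeq2 called 0. Without aOPC replicate 3 the Dusp1 promoter was called lower in aOL, against 1.28% of 15190. At an unadjusted p under 0.05 with all libraries there was 1, Dusp1, against 5.97% of all promoters. Dusp1 was at 11.2 and 2.69 CPM in aOPC, against 1.88 and 2.73 CPM in aOL, so aOPC replicate 2 lay apart and the other 3 libraries overlapped, and the fold change was -0.83 ± 0.39 (SE; edgeR, adjusted p = 0.79). The Dusp1 promoter fold change was -0.28 without aOPC replicate 2 and -1.21 without aOPC replicate 3. Fos was at 6.61 and 2.75 CPM in aOPC, against 1.76 and 2.44 CPM in aOL. Junb was at 11.5 and 6.66 CPM against 4.21 and 5.32 CPM, and Egr1 at 6.75 and 1.99 CPM against 1.13 and 3.18 CPM. In all 10 genes the promoter signal in CPM was highest in aOPC replicate 2, as it was in 79.9% of the 14579 promoters tested, a share that leaves nothing particular to these genes. The fold changes ran from -0.83 to 0.54 (Jund, with 10, 4, 8 and 22 counts), with a median of -0.39 against -0.01 over all promoters. These fold changes follow TMM scaling, and with library totals alone the median was -0.99 over the 10 genes, all below 0, and -0.60 over all promoters.

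**Figure D5:**
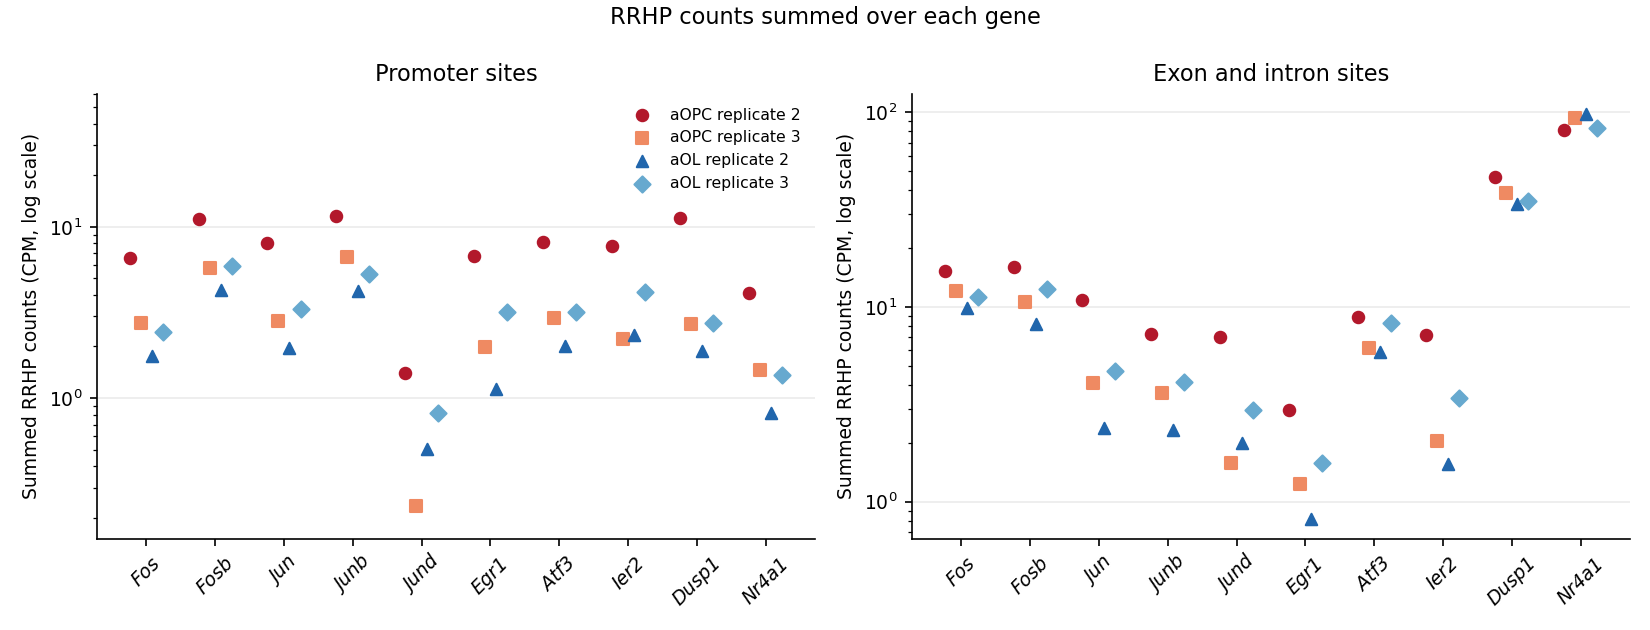
RRHP counts summed over the promoter sites (left) and over the exon and intron sites (right) of each gene, in CPM on a log scale, with 1 point per library. The aOPC replicate 2 library is the highest in all 10 promoters, while Nr4a1, at 81.0 to 98.5 CPM in its gene body, is level across the libraries.

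Read per CCGG position, the median of these promoters was close to that of other genes. The windows ran from 2000 bases before to 500 after the RefSeq start and held at least 10 readable positions. The median signal of the 9 genes that qualified was 0.122 CPM per position, and that of 15192 windows was 0.122 CPM, with 5 of the 9 genes below it. The windows of the 9 genes held at least 20 positions. Over the 7970 windows with that many, the median was 0.107 CPM, with 3 of the 9 genes below it. Nr4a1 was lowest, at 0.0539 CPM, and Fosb highest, at 0.205 CPM. The Jund window had 8 readable positions and no reads in any library. The sites that the authors assign to the Jund promoter lie farther down, in its annotated 5′ UTR.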

How the data were processed

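RNA-sequencing and RRHP were analysed in 8 libraries. The genes and the companion lists were chosen with earlier results of these data known. The RNA files as deposited give a value for each gene, taken to be log2 from its range. Per the study's methods and the submitters' processing notes, reads were aligned to mm10 with BWA and exon counts were normalized with DESeq2, given as version 1.2.5 in the notes and as another version in the methods. The deposited quantiles are nearly equal across libraries, so a shift shared by most genes would not show, and depth per gene is unknown. The RRHP files as deposited give unscaled counts of reads for each strand of a CpG, with the authors' promoter, exon, intron and island columns, and the treatment of duplicates is not given in the sources used here. All sites on assembled chromosomes (100%) lay at a CCGG of GRCm38.p6, and positions are 1-based.

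The design foresaw log2 values, which were tested with limma 3.58.1 (genes with at least 5 in at least 2 libraries). The quasi-likelihood test of edgeR 4.0.16, with TMM scaling, was applied per site (at least 10 reads in at least 2 libraries) and summed per gene body and promoter (filterByExpr), with two-sided tests and Benjamini-Hochberg adjustment over all features. DESeq2 1.42.0, other filters and scalings, the replicate number as a block and leaving out each library were alternatives. Promoter sequences and annotation came from RefSeq, which matched 8 of 10 genes in the promoter table, Egr1 and Ier2 not being among them, and all 10 in the gene table. R 4.3.3, Python 3.11.15, pandas 2.3.3 and matplotlib 3.10.9 were used, and the tests were tried on simulated data. Named were all 10 genes, companion genes with an unadjusted p under 0.05 or among the 3 highest or 3 lowest fold changes of their list, each gene's most heavily read site and every site with an unadjusted p under 0.05, and the 6 genes with the most similar profile.

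Same-numbered libraries of the 2 populations come from different reporter lines, and the deviations of their replicates correlated at -0.07 over genes in RNA and -0.08 over sites in RRHP, so the main fits had no block.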

Additional observations from a re-analysis of the deposited data

How the results depend on the processing

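Over the other filters, scalings, tools and the replicate block, the number of the 10 genes called in RNA stayed at 0, and so did the numbers of RRHP sites, gene bodies and promoters called. The fit with the replicate block called 0 in each, with 127 of all genes called in RNA against 9 without it. The other RNA counts over all genes were 0 without a filter (smallest adjusted p over the 0.05 threshold, 2661 genes at an unadjusted p under 0.05), 36 with a stricter filter, 11 after quantile normalization and 23 with a trend. Leaving out 1 library moved the number of the 10 genes called in RNA between 0 and 10 and their median fold change between -4.85 and -0.63, both through the aOPC libraries. It moved the number of RRHP sites called between 0 and 3, of gene bodies between 0 and 6 and of promoters between 0 and 1, in each case with the highest number without aOPC replicate 3. The 3 sites were 2 in the Dusp1 coding exon and the one upstream of Junb, against 4.02% of all sites called lower, and the promoter was that of Dusp1, against 1.28%. With 1 library left, its spread was taken from the other group.

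Among single fold changes, 283 of 331 values kept their direction and side of the threshold, 21 passed the threshold and 27 reversed. With 1 library left out the RNA fold change ran from -2.25 to 0.22 for Jun and from -5.85 to 0.28 for Egr1. The RRHP gene body fold change ran from -0.33 to 0.21 for Atf3, from -1.31 to 0.0085 for Egr1, from -1.51 to 0.32 for Ier2, from -1.45 to 0.66 for Jund and from -0.069 to 0.18 for Nr4a1. For promoters it ran from -1.05 to 0.12 for Egr1, from -0.19 to 0.49 for Ier2 and from -0.0037 to 1.43 for Jund. At the most heavily read sites it ran from -0.14 to 0.31 for Fos, from -0.23 to 0.19 for Dusp1, from -0.17 to 0.53 for Atf3 and from -1.14 to 0.13 for Fosb. The site upstream of Junb ran from -1.96 to -0.90, both through the aOPC libraries. The Atf3 gene body was at 0.14 over its sites that had 3 reads or more in every library. The Dusp1 site was at 0.055 with library totals, 0.13 with 10 reads in every library and 0.17 with 1 read in at least 2 libraries. With library totals the promoters of Jund and Ier2 were at -0.14 and -0.58, against a median of -0.60 over all promoters, and 31 promoters were called higher and 68 lower in place of 61 and 51. The cause of the changes was not tested.

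With 2 libraries per group, and 10 or fewer counts at most promoter sites, the precision of RRHP is limited, and no smallest detectable difference was computed. The RNA values carry no depth.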
